A study of Mus musculus with 6 samples.

Results

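Metallothionein and zinc transporter transcripts were examined in J774 cells, a mouse macrophage cell line, after depletion of NCOA4, the autophagy receptor that delivers ferritin to the lysosome for iron release. The labels' NCOA4 siRNA replicates are called knockdowns 1 to 3 and the control siRNA replicates controls 1 to 3. The 10 genes are Mt1 and Mt2, Mtf1, Slc30a1 and Slc30a5, and Slc39a1, Slc39a6, Slc39a7, Slc39a10 and Slc39a14. They were chosen by name, as metallothioneins, their metal sensor and carriers of zinc or of zinc and iron, out of 55487 gene identifiers. Earlier results of these data were known when they were chosen. All 10 were above 0 in every library and all 10 were among the 13829 genes tested. J774 cells received control siRNA (genotype label control) or NCOA4 siRNA (genotype label NCOA4 knockdown) in liposomes, and RNA-seq of stranded mRNA libraries was done on 3 biological replicates of each group. The labels give both groups 1 growth medium with serum and name no metal or chelator treatment. All libraries are from 1 cell line, and whether the replicates were separate cultures is not stated, so p-values measure the spread between these libraries.

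Zinc in the cytosol is kept low by a small set of proteins. ZIP carriers (Slc39a genes) move zinc into the cytosol, from outside the cell or from organelles, and ZnT carriers (Slc30a genes) move it out again, into organelles or across the plasma membrane. Metallothioneins are short, cysteine-rich proteins that bind zinc and copper in the cytosol. MTF1 is the transcription factor that senses zinc and binds metal response elements in promoters. It is known to raise metallothionein and Slc30a1 transcription and to lower that of Slc39a10 when zinc is high. Slc39a14 (ZIP14) also carries nonheme iron and manganese, which ties this gene group to the iron economy of macrophages.

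Levels are given in TPM, a length-corrected read share that adds up to 1000000 in each library, so each is a share of the library's RNA, and a change in RNA per cell cannot be seen in them. Reads rebuilt from TPM and gene length numbered 15502131 to 18282107 per library on 20770 genes. Ncoa4, the siRNA target, was at 21.6 ± 1.57 TPM in controls and 9.04 ± 0.533 TPM in knockdowns (n = 3 each, ± SD). All 10 macrophage markers examined (Adgre1, Cd68, Csf1r, Itgam, Lyz2, Spi1, Fcgr3, Mertk, Cd14 and Ptprc) were above 1 TPM in every library, and their summed level was 8867 to 9046 TPM in controls and 9193 to 9315 TPM in knockdowns, and single markers differed by more than most of the zinc genes. Of the 10 markers, 9 did not overlap between the groups, against 28.4% of all tested genes. By limma, 5 of the markers had an adjusted p under 0.05, against 5.42% of all tested genes. Of these 5, 4 were higher (Adgre1, at 152% of control, Csf1r, Fcgr3 and Mertk) and 1 was lower (Cd14, at 83.0%). Their part in the results was not tested. Of 14 markers of other cell types, 9 were at 0 in every library, among them Cd3e, Ncr1, the epithelial keratin genes Krt8 and Krt18, and Alb, and the summed level of all 14 was at most 0.975 TPM. Genes of the mitochondrial genome took 12.9% of TPM in control siRNA replicate 1 and 9.36% to 10.2% in the other 5 libraries. Without these genes, Slc39a10 alone of the 10 genes changed its side of the adjusted p threshold, as given below. Other values shifted without crossing it, such as the log2 fold change of Mt1 from -0.25 to -0.26. The log2 ratio of summed Slc39a TPM moved from -0.06 to -0.08 and that of summed Slc30a TPM from 0.13 to 0.11.

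The zinc genes differed little between the groups. The test was limma on log2(TPM + 0.5) over the 13829 genes whose mean TPM reached 0.5, with Benjamini-Hochberg adjustment across them. Of the 10 genes, 1 had an adjusted p under 0.05, the lower Slc39a14, against 5.42% of all tested genes in either direction and 2.31% in the lower direction. None of the 10 also passed a fold change threshold of 1.5, which 1.18% of all tested genes did, and this count of 0 was the same with limma-voom on rebuilt reads. At an unadjusted p under 0.05 there were 5 of the 10 genes, against 21.6% of all tested genes. The 3 control values and the 3 NCOA4 siRNA values did not overlap in 7 of the 10 genes, against 28.4% of all tested genes. In 4 of these 7 the NCOA4 siRNA values were the lower ones (Mt1, Slc39a6, Slc39a10 and Slc39a14, background 11.8%), and in 3 the higher ones (Mtf1, Slc30a1 and Slc30a5, background 16.6%). These counts describe the 10 genes, which were chosen with earlier results of these data known, and are no test of them as a set. The median log2 fold change over the 10 genes was -0.07, beside 0.03 over all tested genes. Regardless of direction, the median size of the log2 fold change was 0.12 in the 10 genes and 0.12 in all tested genes.

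**Figure D1:**
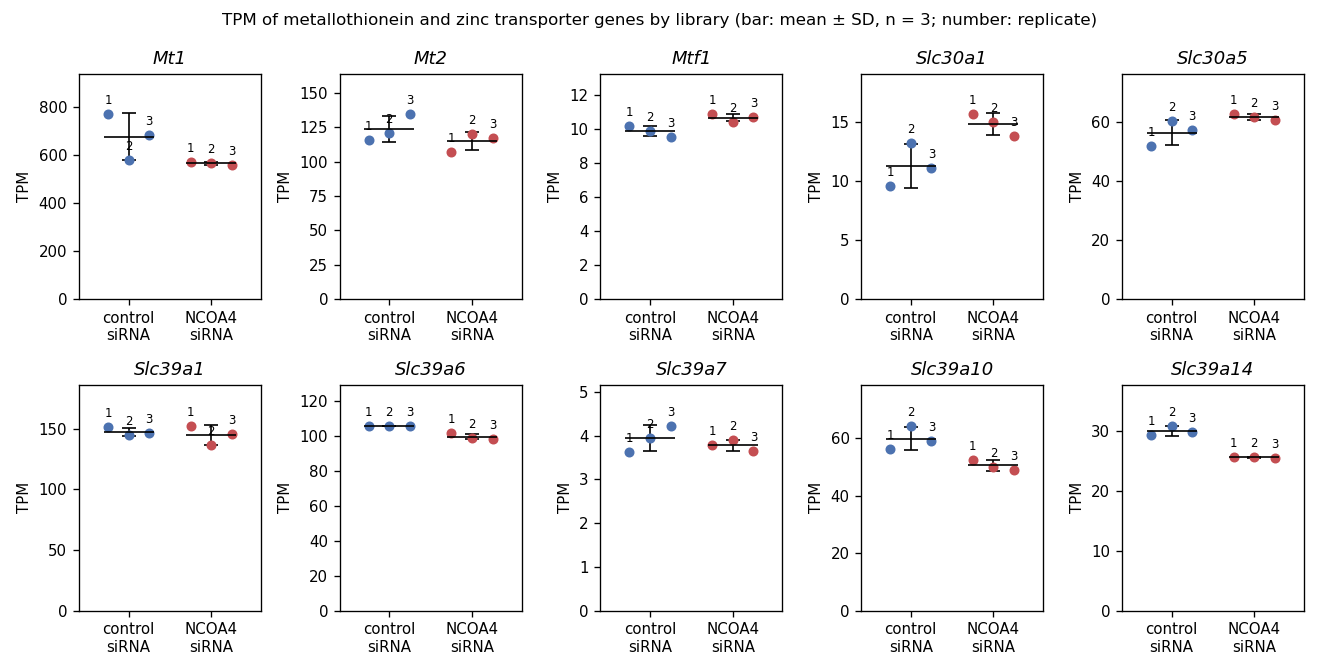
TPM of each of the 10 genes in the 3 control siRNA libraries (blue) and the 3 NCOA4 siRNA libraries (red), with a horizontal bar for the mean, an error bar for the SD and the replicate number above each point; every axis starts at 0. Slc39a14 lies between 25.4 and 25.7 TPM with NCOA4 siRNA, below all 3 control values, while the control values of Mt1 spread from 579 to 771 TPM.

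Mt1 was the most abundant transcript of the 10 genes, and Mt2 came after Slc39a1 as the third. Mt1 (ENSMUSG00000031765) and Mt2 (ENSMUSG00000031762) lie next to each other on the plus strand of chromosome 8 (GRCm38, GENCODE M21), Mt2 from 94172664 to 94173568 and Mt1 from 94179082 to 94180327, with 5513 bases between them. Mt1 was at 771, 579 and 685 TPM in controls 1, 2 and 3, against 572, 568 and 561 TPM in knockdowns 1, 2 and 3. The NCOA4 siRNA values were nearly equal and lay just below the lowest control value, while the controls differed widely among themselves. The coefficient of variation (SD as a share of the mean) of Mt1 was 14.2% in the control libraries and 0.998% in the NCOA4 siRNA libraries, where counting alone gives 1.45% and 1.57%. The log2 fold change was -0.25 (SE 0.0972, 95% interval -0.48 to -0.02), and it missed the threshold (limma adjusted p = 0.202). Its size rested on single control libraries, at -0.15 without control siRNA replicate 1 and at -0.36 without control siRNA replicate 2, where the adjusted p was 0.0434 (0.0434 to 0.390 over all alternatives).

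Mt2, whose protein shares the metal-binding role of that of Mt1, was at 116, 121 and 134 TPM in controls 1, 2 and 3, against 107, 120 and 117 TPM in knockdowns 1, 2 and 3. The 2 groups overlapped, and the log2 fold change was -0.11 (SE 0.0693, 95% interval -0.27 to 0.06, limma adjusted p = 0.430). It was -0.04 without control 3, -0.06 without knockdown 1 and -0.16 after median centring. Summed, Mt1 and Mt2 were at 802 ± 94.8 TPM in controls and 682 ± 5.55 TPM in knockdowns (n = 3 each, ± SD), or 85.0% of control. In this sum the knockdown libraries all lay under the lowest control (p = 0.1 in a two-sided exact permutation test, the smallest that 3 against 3 allow). The ratio of Mt1 to Mt2 TPM was 5.52 ± 1.00 in controls and 4.95 ± 0.332 in knockdowns (n = 3 each, ± SD), and its highest value, 6.66, was that of control siRNA replicate 1 (exact two-sided permutation test, p = 0.5). Without that library the log2 ratio of the group means was 0.0017 in place of -0.16. Levels depend on gene length, since the exons of all Mt1 transcripts together span 1246 bases and its principal transcript spans 549 bases. By the length of the principal transcript the control mean of Mt1 would be 1540 in place of 678 TPM. An antisense gene, Gm45774, covers 73.5% of the exon bases of Mt2. The strand setting of the read counting and its rule for reads that lie in both are not given in the sources used here. Reads of either gene could thus have been counted for the other or for neither. The level of Mt2 and its ratio to Mt1 are therefore uncertain.

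The promoters of both metallothionein genes are shown here with that of Slc30a1, another known target of MTF1, because they held the most copies of the core letters of the element that MTF1 binds. Windows of 250 bases before to 50 bases after the transcription start (RefSeq, GRCm38.p6) were searched for the core of the metal response element, TGCACNC or TGCGCNC, on both strands. Capitals mark the cores, also where a core lies on the opposite strand and is printed as its reverse complement.
Mt1 promoter, chr8:94178839-94179138, plus strand: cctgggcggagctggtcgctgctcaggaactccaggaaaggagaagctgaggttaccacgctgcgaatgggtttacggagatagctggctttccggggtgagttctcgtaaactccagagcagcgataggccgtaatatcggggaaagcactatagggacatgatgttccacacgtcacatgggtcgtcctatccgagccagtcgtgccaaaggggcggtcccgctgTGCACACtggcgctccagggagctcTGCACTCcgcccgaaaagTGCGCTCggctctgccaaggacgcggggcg
Mt2 promoter, chr8:94172368-94172667, plus strand: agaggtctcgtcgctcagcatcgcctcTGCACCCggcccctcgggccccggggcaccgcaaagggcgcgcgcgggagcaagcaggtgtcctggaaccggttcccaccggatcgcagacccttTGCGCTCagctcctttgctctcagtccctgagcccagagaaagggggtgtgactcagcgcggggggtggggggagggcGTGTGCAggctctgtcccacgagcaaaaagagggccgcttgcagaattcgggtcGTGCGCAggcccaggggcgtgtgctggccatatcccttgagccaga
Slc30a1 promoter, chr1:191906531-191906830, plus strand: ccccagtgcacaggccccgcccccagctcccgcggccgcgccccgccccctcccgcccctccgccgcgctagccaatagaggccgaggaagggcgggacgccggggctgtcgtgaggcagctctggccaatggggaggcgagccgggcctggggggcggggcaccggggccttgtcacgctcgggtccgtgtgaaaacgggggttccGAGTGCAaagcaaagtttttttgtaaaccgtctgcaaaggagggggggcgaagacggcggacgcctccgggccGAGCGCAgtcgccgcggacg

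The Mt2 window held 4 cores, the Mt1 window 3 and the Slc30a1 window 2. Of all 32851 promoter windows of this length, 25.7% held at least 1 core, 7.11% at least 2, 1.97% at least 3 and 0.518% at least 4. The window of Slc30a5 held 1 core, and 0 cores were found in the windows of Mtf1, Slc39a1 and Slc39a7 and in either of the 2 windows of Slc39a10. Neither Slc39a10 window lies at the start of its GENCODE M21 model, which is at 46892852 on the minus strand. One lies outside the model (46925727 to 46926026) and the other inside it (46853569 to 46853868). The Mtf1 window (124802299 to 124802598) also lies inside the Mtf1 model, which starts at 124802104. The Mt2 window (94172368 to 94172667) ends just past the Mt2 model start at 94172664. The counts of cores are therefore those of the RefSeq windows, and windows at other starts could hold other counts. In all, 8 of the 10 genes matched a window in the table, and Slc39a6 and Slc39a14 did not. A core in these letters is a description of the window, not a measured binding site. Of the 3 genes with at least 2 cores, Mt1 and Mt2 had log2 fold changes below 0 and Slc30a1 had one above 0. None of these 3 had an adjusted p under 0.05 by limma, and a part of MTF1 was not tested.

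Mtf1 (ENSMUSG00000028890, chromosome 4, 124802104 to 124849800, plus strand), the gene of the zinc sensor itself, was at a moderate level that barely varied. It lay between 9.54 and 10.1 TPM in controls and between 10.4 and 10.8 TPM with NCOA4 siRNA, without overlap. The log2 fold change was 0.11 (95% interval -0.04 to 0.25, adjusted p = 0.366 by limma). An antisense gene, 1110065P20Rik, covers 8.09% of its exon bases.

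Among the exporters, Slc30a1 had the largest log2 fold change of the 10 genes. Slc30a1 (ENSMUSG00000037434, chromosome 1, 191906767 to 191913247, plus strand) encodes ZnT1, the main zinc exporter of the plasma membrane. It was at 9.53, 13.2 and 11.05 TPM in controls 1, 2 and 3, against 15.6, 14.98 and 13.8 TPM in knockdowns 1, 2 and 3. All 3 NCOA4 siRNA values lay above all 3 control values, but the gap between the groups was small beside the spread of the controls. The means were 11.3 ± 1.84 and 14.8 ± 0.939 TPM (n = 3 each, ± SD), so that the NCOA4 siRNA mean was 131% of control. The log2 fold change of 0.39 (SE 0.118, 95% interval 0.11 to 0.67) missed the threshold with an adjusted p of 0.121 (limma). It passed with limma-voom on rebuilt reads, at 0.41 with an adjusted p of 0.0170, and its adjusted p was between 0.0170 and 0.321 over all alternatives. These values rest on 287, 419 and 302 reads in controls and on 476, 428 and 436 reads with NCOA4 siRNA. An antisense gene, 1700034H15Rik, covers 8.92% of its exon bases.

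Slc30a5 (ENSMUSG00000021629, chromosome 13, 100802648 to 100833427, minus strand) encodes ZnT5, which carries zinc into the early secretory pathway and was the most abundant exporter. It lay between 51.6 and 60.1 TPM in controls and between 60.5 and 62.5 TPM with NCOA4 siRNA, and the groups were apart by less than 1 TPM. The log2 fold change was 0.13 (95% interval -0.01 to 0.27, adjusted p = 0.276 by limma). Without control siRNA replicate 1, the lowest library, it was 0.07.

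Slc39a14 was the gene whose difference passed the test. Slc39a14 (ENSMUSG00000022094, chromosome 14, 70303469 to 70351425, minus strand) encodes ZIP14, a plasma membrane carrier of zinc, manganese and nonheme iron. It was at 29.3, 30.9 and 29.8 TPM in controls 1, 2 and 3, against 25.6, 25.7 and 25.4 TPM in knockdowns 1, 2 and 3. The groups were well apart and the replicates of each were close together. Slc39a14 fell from 30.01 ± 0.787 to 25.6 ± 0.125 TPM (n = 3 each, ± SD), to 85.2% of control, a log2 fold change of -0.23 (SE 0.0441, 95% interval -0.33 to -0.12) at a limma adjusted p of 0.0348. Its replicates agreed more closely than counting allows on average, with a coefficient of variation of 0.490% between the NCOA4 siRNA libraries where counting alone gives 2.54%. The direction was the same in all 16 alternatives, and the log2 fold change was between -0.28 and -0.21. The call, however, was lost without a trend in eBayes (adjusted p = 0.0628) and without control siRNA replicate 2 or 3 or any of the NCOA4 siRNA replicates (adjusted p between 0.0743 and 0.140), and over all alternatives the adjusted p ran from 0.00694 to 0.140.

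Slc39a10 had a difference of the same size that missed the threshold. Slc39a10 (ENSMUSG00000025986, chromosome 1, 46807544 to 46892852, minus strand) encodes ZIP10, a zinc importer of the plasma membrane. It was at 56.3, 64.5 and 59.1 TPM in controls 1, 2 and 3, against 52.7, 50.1 and 49.1 TPM in knockdowns 1, 2 and 3. All knockdown values were below all control values. The means were 59.96 ± 4.13 and 50.6 ± 1.83 TPM (n = 3 each, ± SD), a log2 fold change of -0.24 (SE 0.0600, 95% interval -0.38 to -0.10) at a limma adjusted p of 0.0727. The threshold was passed after median centring of the libraries (adjusted p = 0.0170), after quantile normalization (0.0341), without mitochondrial genes (0.0462), with limma-voom (0.0114) and without control siRNA replicate 1 (0.0425). The log2 fold change stayed between -0.30 and -0.19 and the adjusted p between 0.0114 and 0.225 over all alternatives.

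The 3 remaining importers differed least. Slc39a1 (ENSMUSG00000052310, chromosome 3, 90248172 to 90253612, plus strand) encodes ZIP1, a widely expressed importer, and was the most abundant transporter. It lay between 145 and 151 TPM in controls and between 137 and 153 TPM with NCOA4 siRNA, with a log2 fold change of -0.03 (95% interval -0.14 to 0.09, adjusted p = 0.802 by limma). A processed pseudogene, Slc39a1-ps, is 97.7% identical to the Slc39a1 transcript over its 969 bases, so reads of each could have been counted for the other. Slc39a1-ps itself was at 4.30 ± 0.625 TPM in controls and 7.33 ± 1.66 TPM in knockdowns (n = 3 each, ± SD), on 20 to 28 and 33 to 52 reads per library. The groups did not overlap, and the log2 fold change of 0.69 missed the threshold (SE 0.171, adjusted p = 0.0713 by limma).

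Slc39a6 (ENSMUSG00000024270, chromosome 18, 24579881 to 24603817, minus strand) encodes ZIP6, a plasma membrane importer related to ZIP10. It was at 106 TPM in all 3 control libraries and between 98.2 and 101 TPM with NCOA4 siRNA, without overlap. The log2 fold change was -0.09 (95% interval -0.17 to -0.00, adjusted p = 0.210 by limma). The coefficient of variation of its control libraries was 0.0783%, where counting alone gives 2.02%, so the closeness of the controls was greater than sampling would give on average. Slc39a7 (ENSMUSG00000024327, chromosome 17, 34028269 to 34031682, minus strand) encodes ZIP7, which releases zinc from the endoplasmic reticulum. It was the lowest of the 10 genes, between 3.64 and 4.23 TPM in controls and between 3.66 and 3.91 TPM with NCOA4 siRNA, on 54 to 62 reads per library. Its log2 fold change was -0.05 (95% interval -0.29 to 0.19, adjusted p = 0.818 by limma). The gene model Gm20427 on the same strand covers 80.7% of the exon bases of Slc39a7 and itself was at no more than 0.0517 TPM, and how the authors' counter treated reads that lie in both is not given in the sources used here. The level of Slc39a7 is therefore uncertain.

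**Figure D2:**
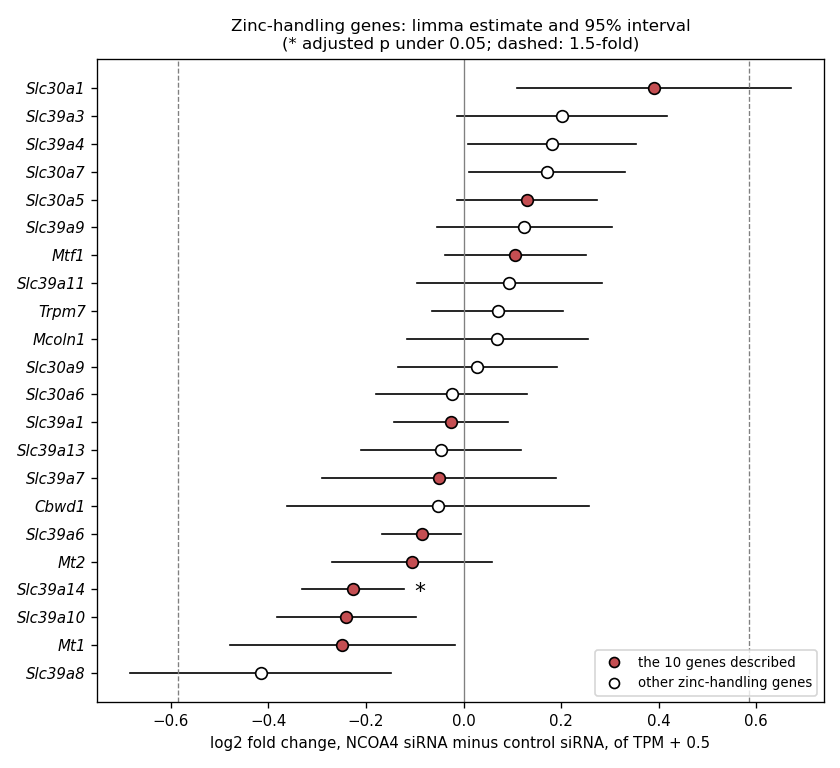
log2 fold change (NCOA4 siRNA minus control siRNA, of TPM + 0.5) with its 95% interval from limma for the 22 tested zinc-handling genes, the 10 genes described as filled points and others as open points; dashed lines mark a 1.5-fold change and a star an adjusted p under 0.05. Slc39a14 at -0.23 carries the one star, while Slc30a1 at 0.39 and Slc39a8 at -0.42 lie farthest from 0 with wider intervals.

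Among the transporters as a whole, the summed TPM of the 14 importer genes exceeded that of the 10 exporter genes. Of the 14 Slc39a genes, 13 were above 0 in a library and 11 were tested. Of the 10 Slc30a genes, 7 were above 0 and 5 were tested, and Slc30a2, Slc30a8, Slc30a10 and the brain metallothionein gene Mt3 were at 0 in all 6 libraries. Summed Slc39a TPM was 431, 439 and 435 in controls 1, 2 and 3, against 428, 408 and 413 in knockdowns 1, 2 and 3. Summed Slc30a TPM was 106, 122 and 114 in controls 1, 2 and 3, against 127, 125 and 121 in knockdowns 1, 2 and 3. The importer sum lay lower with NCOA4 siRNA in every library, while the exporter sums overlapped. The ratio of importer to exporter TPM was 3.83 ± 0.224 in controls and 3.35 ± 0.0797 in knockdowns (n = 3 each, ± SD), or 87.4% of control. The groups did not overlap in this ratio (p = 0.1 in a two-sided exact permutation test, the smallest possible), and leaving out single libraries kept its log2 change between -0.23 and -0.15. The permutation test gave p = 0.1 for the importer sum and p = 0.2 for the exporter sum. The log2 ratio of the exporter sum was 0.13, and it was 0.08 without control 1 and 0.07 with libraries scaled to an equal median. By principal transcript length, the control mean of the exporter Slc30a5 would be 129 in place of 56.2 TPM. That of the importer Slc39a14 would be 64.3 in place of 30.01 TPM. The sums were not computed by that length, so their sizes and their ratio hold for the gene lengths used here.

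**Figure D3:**
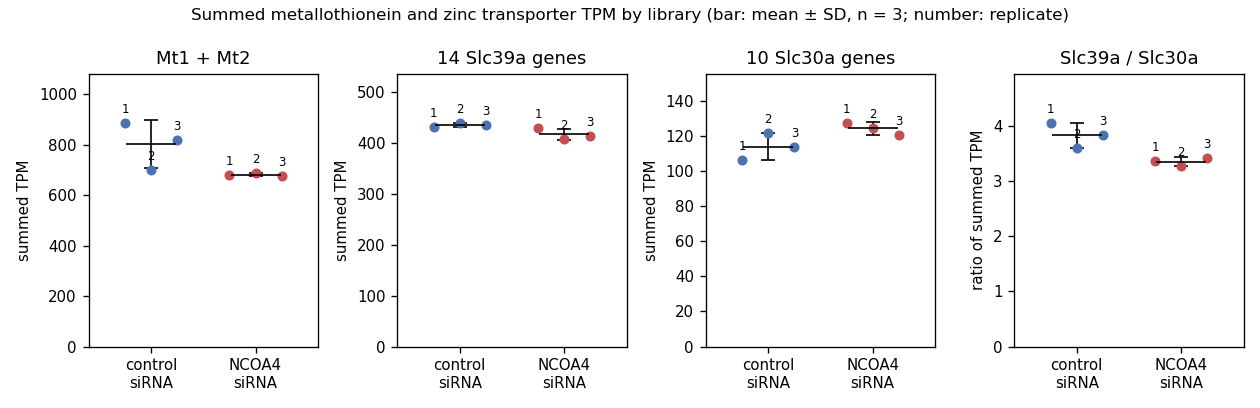
Summed TPM of Mt1 and Mt2, of the 14 Slc39a (importer) genes and of the 10 Slc30a (exporter) genes, and the ratio of importer to exporter TPM, in the 3 control siRNA (blue) and 3 NCOA4 siRNA (red) libraries, with mean and SD as bars and replicate numbers beside the points. The ratio lies between 3.27 and 3.43 with NCOA4 siRNA and between 3.61 and 4.06 with control siRNA.

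Levels fell into a steep order, given here as mean TPM over all 6 libraries. Mt1 led with 623 TPM, above 98.5% of all tested genes, followed by Slc39a1 at 146, Mt2 at 119 and Slc39a6 at 103 TPM, and the 6-library ranges of these neighbours did not overlap. Slc30a5 at 58.8 and Slc39a10 at 55.3 TPM came next, with ranges that overlapped. Slc39a14 was at 27.8 TPM, with a range that overlapped that of Slc39a9. Slc30a1 at 13.02 and Mtf1 at 10.2 TPM also overlapped, and Slc39a7 at 3.86 TPM was close to Slc39a8 at 4.01 TPM. By the length of the principal or longest coding transcript, the control mean of Slc39a14 would be 64.3 in place of 30.01 TPM. That of Slc30a5 would be 129 in place of 56.2 TPM, above that of Slc39a6 at 111 TPM. That of Mt2 would be 142 TPM, near that of Slc39a1 at 148 TPM. The order below Mt1 therefore depends on the gene model.

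**Figure D4:**
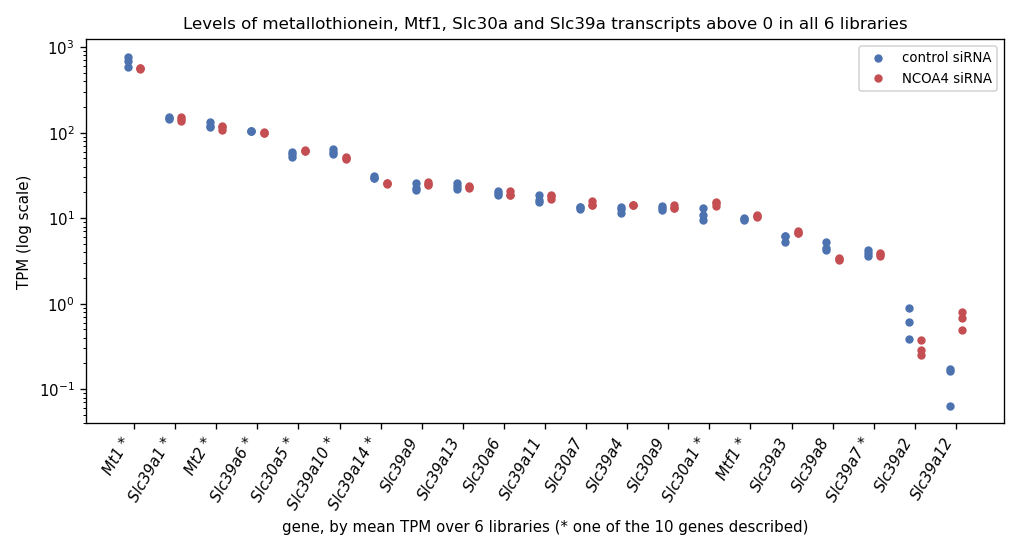
TPM on a log scale of the 21 metallothionein, Mtf1, Slc30a and Slc39a genes above 0 in all 6 libraries, ordered by mean TPM, with control siRNA libraries in blue and NCOA4 siRNA libraries in red; a star marks the 10 genes described. Mt1 stands alone near 623 TPM, and Slc39a2 and Slc39a12 lie below 1 TPM in every library.

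The wider list of zinc-handling genes held 33 genes, of which 22 were tested, and Slc39a14 was the only gene in it with an adjusted p under 0.05. Of the 12 tested genes outside the 10, 0 had an adjusted p under 0.05 and 3 had an unadjusted p under 0.05 (limma), 2 of them higher (Slc30a7 and Slc39a4) and 1 lower (Slc39a8), a share near the 21.6% of all tested genes. With limma-voom on rebuilt reads Slc39a8 was the one that passed. The groups did not overlap in 4 of these 12 genes, against 28.4% of all tested genes. Slc39a8 encodes ZIP8, the closest relative of ZIP14, and was at 4.50, 5.27 and 4.20 TPM in controls 1, 2 and 3, against 3.46, 3.23 and 3.37 TPM in knockdowns 1, 2 and 3. Its log2 fold change was -0.42 (SE 0.113, adjusted p = 0.0901 by limma), and it passed the threshold after median centring (adjusted p = 0.0466), quantile normalization (0.0410) and with limma-voom (0.0152). The median log2 fold change of the 22 tested genes was 0.00.

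Of 13 known MTF1 targets, 11 were tested and 2 had an adjusted p under 0.05, 1 in each direction, beside 5.42% of all tested genes. The 11 include Mt1, Mt2, Slc30a1 and Slc39a10, described above, none of which is among these 2. Slc40a1, the iron exporter ferroportin, rose from 13.5 ± 0.859 to 18.5 ± 0.264 TPM (n = 3 each, ± SD), a log2 fold change of 0.45 (SE 0.0630, adjusted p = 0.0133 by limma). Without NCOA4 siRNA replicate 1, 2 or 3 its adjusted p was 0.0765, 0.0797 or 0.0666. Ndrg1, a stress-response gene, fell from 242 ± 4.22 to 182 ± 6.37 TPM (n = 3 each, ± SD), a log2 fold change of -0.41 (SE 0.0398, adjusted p = 0.00418 by limma). The median log2 fold change of these 11 targets was 0.01. The list mixes genes that MTF1 is known to raise with Slc39a10, which it lowers, so this median does not describe MTF1 activity. Regardless of direction, the median size was 0.25 in the 11 targets and 0.12 in all tested genes. The list was written with earlier results of these data known, and a part of MTF1 was not tested. Copper shares the metallothioneins with zinc, and of 16 genes for copper handling 13 were tested and 1 had an adjusted p under 0.05, near the 5.42% of all tested genes. This was Cp, the multicopper ferroxidase ceruloplasmin, which rose from 0.723 ± 0.226 to 1.94 ± 0.190 TPM (n = 3 each, ± SD), with an adjusted p of 0.0437 (limma). It was no longer called with no limit on low TPM (0.0646), after quantile normalization (0.0547) and without control siRNA replicate 2 or 3 or NCOA4 siRNA replicate 1, 2 or 3 (0.0831, 0.0848, 0.144, 0.164 and 0.129).

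The spread between replicates was larger with control siRNA than with NCOA4 siRNA in 8 of the 10 genes, and in 67.8% of 13238 tested genes above 0 in every library. The median coefficient of variation of the 10 genes was 7.20% in controls and 2.70% with NCOA4 siRNA, beside 7.91% and 5.05% over those genes. Control siRNA replicate 1 lay farthest from the control median in 4 of the 10 genes, against 42.2% of those 13238 genes. It held the lowest of the control values in Mt2, Slc30a1, Slc30a5, Slc39a7, Slc39a10 and Slc39a14, and the highest in Mt1, Mtf1, Slc39a1 and Slc39a6.

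**Figure D5:**
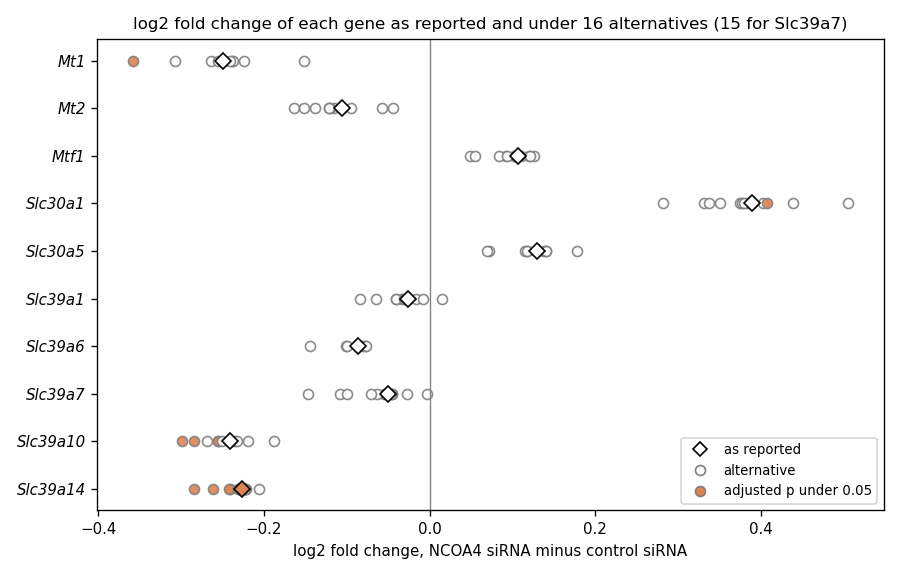
log2 fold change of each of the 10 genes as reported (diamonds) and under the alternatives (circles: 16 per gene, 15 for Slc39a7), with filled symbols for an adjusted p under 0.05. Slc39a14 keeps to the range from -0.28 to -0.21 and Slc39a10 to that from -0.30 to -0.19, while Slc30a1 spreads from 0.28 to 0.51.

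The genes whose pattern over the 6 libraries was most like that of the metallothioneins were found among the 10038 genes whose mean TPM reached 5, by the Pearson correlation of log2(TPM + 0.5) with the mean of Mt1 and Mt2. They were Zfpm1, a transcription cofactor (r = 0.99), the scaffold gene Dnmbp (0.99), the telomere protein gene Tinf2 (0.99), the adaptor gene Dok2 (0.99) and the disulfide isomerase gene Pdia5 (0.98). In all, 139 genes had an r above 0.9. Mt1 and Mt2 themselves differed in pattern, since control siRNA replicate 1 held the highest control value of Mt1 and the lowest of Mt2. Zfpm1 was at 35.2, 29.8 and 35.2 TPM in controls 1, 2 and 3, against 27.6, 29.2 and 28.1 TPM in knockdowns 1, 2 and 3, so that, as in Mt1, control siRNA replicate 2 was the control library nearest to the NCOA4 siRNA libraries. These correlations rest on 6 libraries that share their group difference and their scaling, and are given as a description.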

How the data were processed

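RNA-seq libraries of 3 control siRNA and 3 NCOA4 siRNA replicates were analysed, 6 in all. Per the labels, stranded mRNA libraries were made, and the submitters' processing notes name Trimmomatic 0.33, FastQC, HISAT2 2.1.0, featureCounts and edgeR, and the build mm10. The authors deposited TPM per Ensembl gene and library, with no scaling between libraries. Their own edgeR test was not used. Of 55487 identifiers, 55227 were named from GENCODE M21 (GRCm38).

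Reads were rebuilt as TPM times exon length in units of 1 read. Values within 0.02 of a whole number in all 6 libraries were kept, which held for 98.5% of 21096 genes above 0. They give depth, the coefficients of variation from counting alone and the limma-voom alternative. Those coefficients cover counting error only, while limma-voom also takes in the spread between replicates.

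The main test was limma 3.58.1 (R 4.3.3) with lmFit and eBayes with a trend on log2(TPM + 0.5), over the 13829 genes whose mean TPM reached 0.5, with Benjamini-Hochberg adjustment. Fold changes on this scale understate those of low genes. Single values were tested with an exact permutation test over 20 arrangements (scipy 1.17.1). The test was checked on simulated data with the same spread setting for all genes and both groups. That check does not cover the larger spread of the control libraries seen here.

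The genes named are the 10 genes, Ncoa4, Slc39a1-ps, the Slc30a, Slc39a and metallothionein genes, members of the MTF1 and copper lists with an adjusted p under 0.05, and the 5 genes most like the metallothioneins. Slc39a8, Slc30a7, Slc39a4, Slc39a12 and Slc39a2 are described beyond their level because of their values. The genes and lists were chosen with earlier results of these data known. Results were recomputed with another pseudocount (0.1 or 1), with a low-TPM limit of 5 or none, on median-centred and on quantile-normalized values, without mitochondrial genes, without a trend in eBayes, with limma-voom, with a replicate block and with each library left out. Levels by principal transcript length were added after seeing the data.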

Additional observations from a re-analysis of the deposited data

How the results depend on the processing

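The number of the 10 genes with an adjusted p under 0.05 was 1 as reported. It was 2 after median centring, after quantile normalization and without mitochondrial genes, 3 with limma-voom and 0 without a trend in eBayes, and between 0 and 2 with single libraries left out. No gene of the 10 passed both thresholds in any of the 16 alternatives. Over these alternatives 144 log2 fold changes of the 10 genes kept their direction and their side of the threshold, 7 lost the call (all of Slc39a14), 7 gained it (Slc39a10, Slc30a1 and Mt1) and 1 turned, that of Slc39a1, which lay between -0.0643 and 0.0145 with single libraries left out. All genes past both thresholds numbered 163, and 77 to 172 with single libraries left out. They numbered 173 after median centring, 160 after quantile normalization and 165 without mitochondrial genes. With limma-voom they numbered 217, and without a trend in eBayes 150. The share of all genes with an adjusted p under 0.05 alone is not given for the alternatives. In the zinc, MTF1 and copper lists together 4 genes had an adjusted p under 0.05, 10 with limma-voom and 1 to 6 with single libraries left out. The log2 ratio of the summed Slc39a TPM was -0.06, and -0.12 when libraries were scaled to an equal median. The causes were not tested. Libraries with the same replicate number did not deviate together (correlations of 0.028, -0.019 and 0.023 over all tested genes). With the replicate number as a block, 87 genes passed both thresholds, 0 of the 10 genes had an adjusted p under 0.05 (Slc39a14 at 0.126) and 1 gene of the lists did, Ndrg1, with Slc40a1 at 0.0654 and Cp at 0.114. Depth limits Slc39a7, where counting alone gives a coefficient of variation of 13.2% in control libraries.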

Other observations

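Transporters below the limit for the test had few reads. Slc39a12, whose protein ZIP12 is best known from brain, had read counts of 3, 3 and 1 in controls 1, 2 and 3, against 12, 13 and 9 in knockdowns 1, 2 and 3. Slc39a2, the gene of ZIP2, had read counts of 12, 8 and 16 in controls, against 5, 7 and 6 in knockdowns. The groups overlapped in neither gene, the knockdowns being higher in Slc39a12 and lower in Slc39a2. Among all tested genes 28.4% had groups without overlap. Neither gene was tested, since each had a mean TPM under 0.5, and both are described because of their values. Slc30a3 and Slc30a4 had at most 1 read in any library, and their groups overlapped.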
